A study of Saccharomyces cerevisiae with 6 samples.

Results

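The genes described here are 30 of the general stress response of budding yeast, together with the enzymes that make and break the storage carbohydrates trehalose and glycogen. They were chosen by name, from 44 systematic names of genes of the type induced by the transcription factors Msn2 and Msn4. The choice was not made by their values, but earlier results of these data were known when the names were picked. Of those names, 30 occur among the 2850 genes in the files. The other 14 have no row there and were not analysed here (HSP30, GPH1, GDB1, TFS1, GRE1, ALD3, UBI4, ATH1, HBT1, GND2, XBP1, MOH1, FMP45 and PHM7). The set therefore holds genes for the synthesis of both carbohydrates, though not all of them, but of the enzymes that break them down it holds only NTH1.

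Polyadenylated RNA was measured in 3 [ESI+] and 3 naive cultures of Saccharomyces cerevisiae. Both groups are labelled as the diploid laboratory strain BY4743 and were grown in the rich glucose medium YPD to the middle of exponential growth, with no stress applied. [ESI+] is a heritable, prion-like state linked to the Set3 histone deacetylase complex, and naive cells lack it. The labels call the 3 cultures of each group biological replicates, and do not say how many separate isolates of [ESI+] they came from. In bulk RNA, a change in the number of cells that express a gene and a change in RNA per cell cannot be told apart.

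Msn2 and Msn4 are zinc-finger activators that protein kinase A keeps out of the nucleus while glucose is plentiful. Under heat, starvation, oxidants or high salt they enter the nucleus and bind the stress response element, which has the core AGGGG, or CCCCT on the other strand. Their targets include chaperones, antioxidant enzymes, and the enzymes of trehalose and glycogen metabolism. Trehalose protects proteins and membranes and is made from UDP-glucose and glucose 6-phosphate, and glycogen is a glucose store built from UDP-glucose. In cells growing fast on glucose these genes are usually at a low level, and they are induced as glucose runs out.

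The promoters were read first. In the R64 genome, the 500 bases before the start codon held at least 1 match to the core on either strand in 29 of the 30 genes (96.7%), with ALD2 the exception. The share was 34.7% of the 2848 listed nuclear genes and 34.1% of 6000 nuclear coding genes. At least 3 matches were present in 15 of the 30, against 2.28% of listed genes. The genes were chosen as ones of the Msn2 and Msn4 type, so this excess is not independent of the choice. TPS1 had 6 matches, HSP12, TSL1 and PGM2 had 5 each, and SOD2 had 1, at position -141. Overlapping matches were counted separately, and a match to these 5 letters is a description of the sequence and not a bound site.

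**Figure D1:**
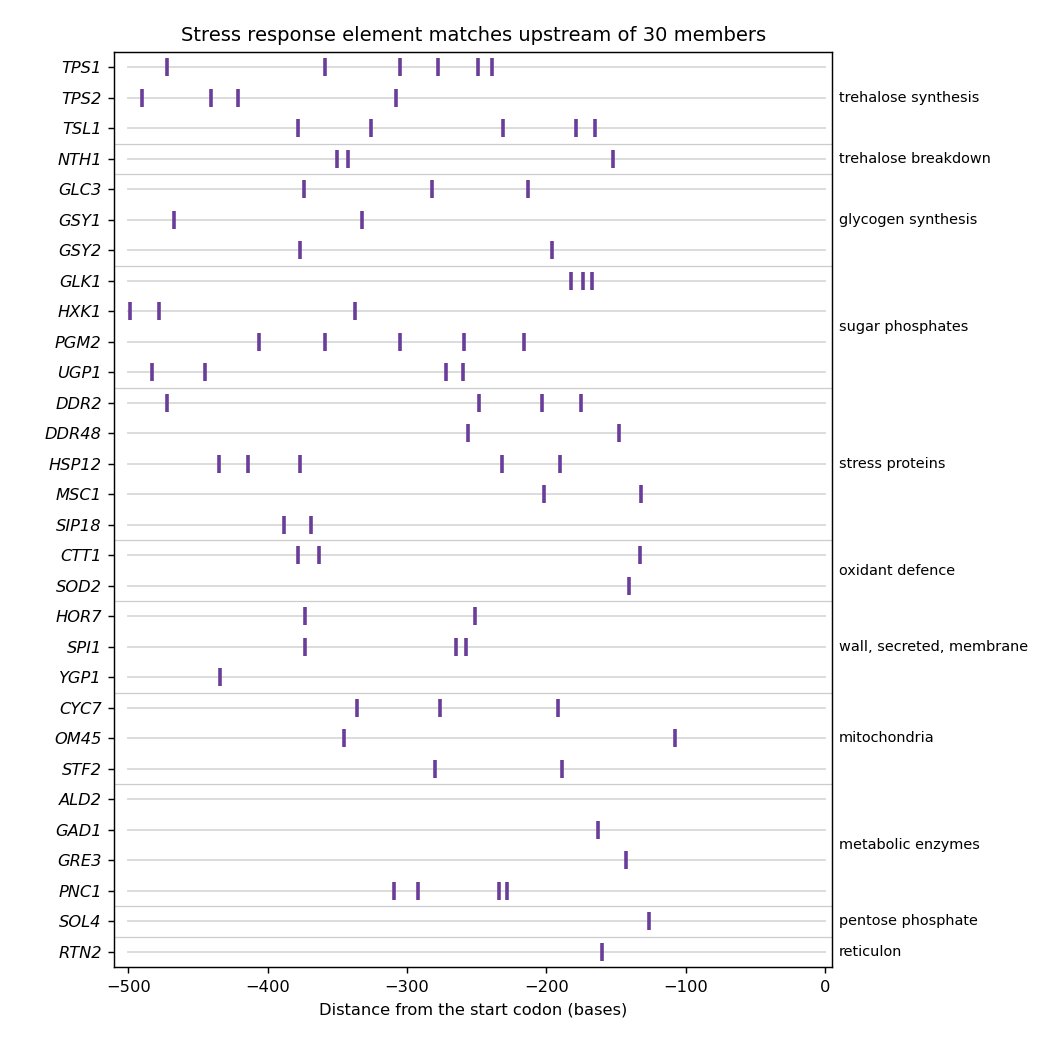
Positions of AGGGG or CCCCT (bars) in the 500 bases before the start codon of each of the 30 genes, grouped by role; the x axis is the distance from the start codon in bases. TPS1 has 6 bars, ALD2 has none, and SOD2 has 1.

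The windows below are the 200 bases farthest from the start codon within those 500, for 5 genes, written 5′ to 3′ on the strand of the gene (R64, 1-based). They were chosen for a direct comparison: HSP12 is the classic reporter of Msn2 and Msn4, TSL1, PGM2 and OM45 had higher TPM values in every ESI+ library than in any naive one, and SOD2 had lower ones. Capitals mark the core on either strand. It occurs 3 times in the windows of HSP12 and PGM2 and 2 times in that of TSL1. The window of OM45 holds 1 and that of SOD2 holds 0. The windows leave out matches nearer the start codon, among them the only one of SOD2. The full 500 bases held 5 matches each for HSP12, TSL1 and PGM2, 2 for OM45 and 1 for SOD2. A link between these counts and the values was not tested.
HSP12, chrVI:106756-106955, plus strand: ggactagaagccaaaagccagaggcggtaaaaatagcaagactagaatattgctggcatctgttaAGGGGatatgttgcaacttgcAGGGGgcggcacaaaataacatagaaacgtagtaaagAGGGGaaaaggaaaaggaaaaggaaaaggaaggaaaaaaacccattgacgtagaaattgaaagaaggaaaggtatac
TSL1, chrXIII:70124-70323, plus strand: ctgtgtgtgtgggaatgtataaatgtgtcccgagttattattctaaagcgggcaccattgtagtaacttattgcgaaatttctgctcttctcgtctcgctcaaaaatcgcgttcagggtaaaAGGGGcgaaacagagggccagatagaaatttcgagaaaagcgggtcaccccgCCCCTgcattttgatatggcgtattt
PGM2, chrXIII:477907-478106, minus strand: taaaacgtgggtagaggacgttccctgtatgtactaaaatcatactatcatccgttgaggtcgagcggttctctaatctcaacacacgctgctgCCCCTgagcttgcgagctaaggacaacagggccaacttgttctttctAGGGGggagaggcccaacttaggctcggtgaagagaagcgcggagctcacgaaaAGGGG
OM45, chrIX:93119-93318, plus strand: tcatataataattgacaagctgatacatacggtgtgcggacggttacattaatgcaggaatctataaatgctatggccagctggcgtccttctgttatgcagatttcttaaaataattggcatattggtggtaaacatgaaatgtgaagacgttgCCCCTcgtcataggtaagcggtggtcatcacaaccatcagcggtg
SOD2, chrVIII:123891-124090, minus strand: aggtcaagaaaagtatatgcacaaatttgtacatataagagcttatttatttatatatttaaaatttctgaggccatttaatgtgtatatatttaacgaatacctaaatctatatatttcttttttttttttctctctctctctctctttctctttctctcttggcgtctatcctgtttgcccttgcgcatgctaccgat

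The libraries differed in ways that bear on these genes. Total estimated counts were 316485 to 3896490 in the ESI+ libraries and 1080941 to 5934050 in the naive libraries. The 100 most abundant genes held 51.6%, 28.3% and 41.8% of the counts in ESI+ replicates 1, 2 and 3, against 57.0% to 61.1% in the naive libraries. An estimated background, the 5th percentile of counts per kb over all genes, was 298.3 counts per kb in ESI+ replicate 2, against 1.991 to 55.39 in the other 5 libraries. Of the 30 genes, 28 lie among the 711 most abundant of the tested genes, where the median log2 fold change of all genes was -0.70. URA3, which BY4743 lacks by design, was at 17.8, 26.3 and 333 normalised CPM (counts scaled to a common library size by the TMM method) in ESI+ replicates 1 to 3, against 32.3, 20.4 and 255 CPM in naive replicates 1 to 3, so the third library of each group goes against the strain label. The a-factor gene MFA1, which a/alpha diploids repress, was at 3.77, 11.4 and 15.0 CPM in ESI+ libraries and 1.42, 0 and 0.87 CPM in naive libraries (log2 fold change 3.25, SE 1.25, edgeR adjusted p = 0.0963). HIS3, partly deleted in this strain, was at 35.0, 66.5 and 453 CPM in ESI+ libraries and 32.9, 32.6 and 50.6 CPM in naive libraries (2.20, SE 0.69, adjusted p = 0.0545, and 0.39, adjusted p = 0.680, without ESI+ replicate 3). MET17 had 0.71 (adjusted p = 0.397) and the haploid-specific STE4 had 0.90 (adjusted p = 0.345), so edgeR called 0 of the marker genes that it tested. DESeq2 called MFA1 (adjusted p = 0.0343) and HIS3 (adjusted p = 0.0297). The part of these differences in the results was not tested beyond leaving out each library.

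As a group, the stress, trehalose and glycogen genes did not move one way between ESI+ and naive cells. With edgeR's quasi-likelihood test and Benjamini-Hochberg adjustment over all 2844 tested genes, 0 of the 30 passed an adjusted p of 0.05, where 7.91% of all tested genes passed (6.26% higher and 1.65% lower). Log2 fold changes, ESI+ minus naive, were positive for 15 genes and negative for 15. They ran from -1.59 to 1.93 with a median of -0.04, where the median of all tested genes was 0.07. At an unadjusted p under 0.05 edgeR picked 3 of the 30, OM45 and SIP18 higher and SOD2 lower, where 25.7% of all genes were picked (15.1% higher and 10.6% lower). DESeq2 called OM45 higher (adjusted p = 0.047) and SOD2 lower (adjusted p = 0.0258), where it called 8.48% of all genes higher and 5.1% lower.

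**Figure D2:**
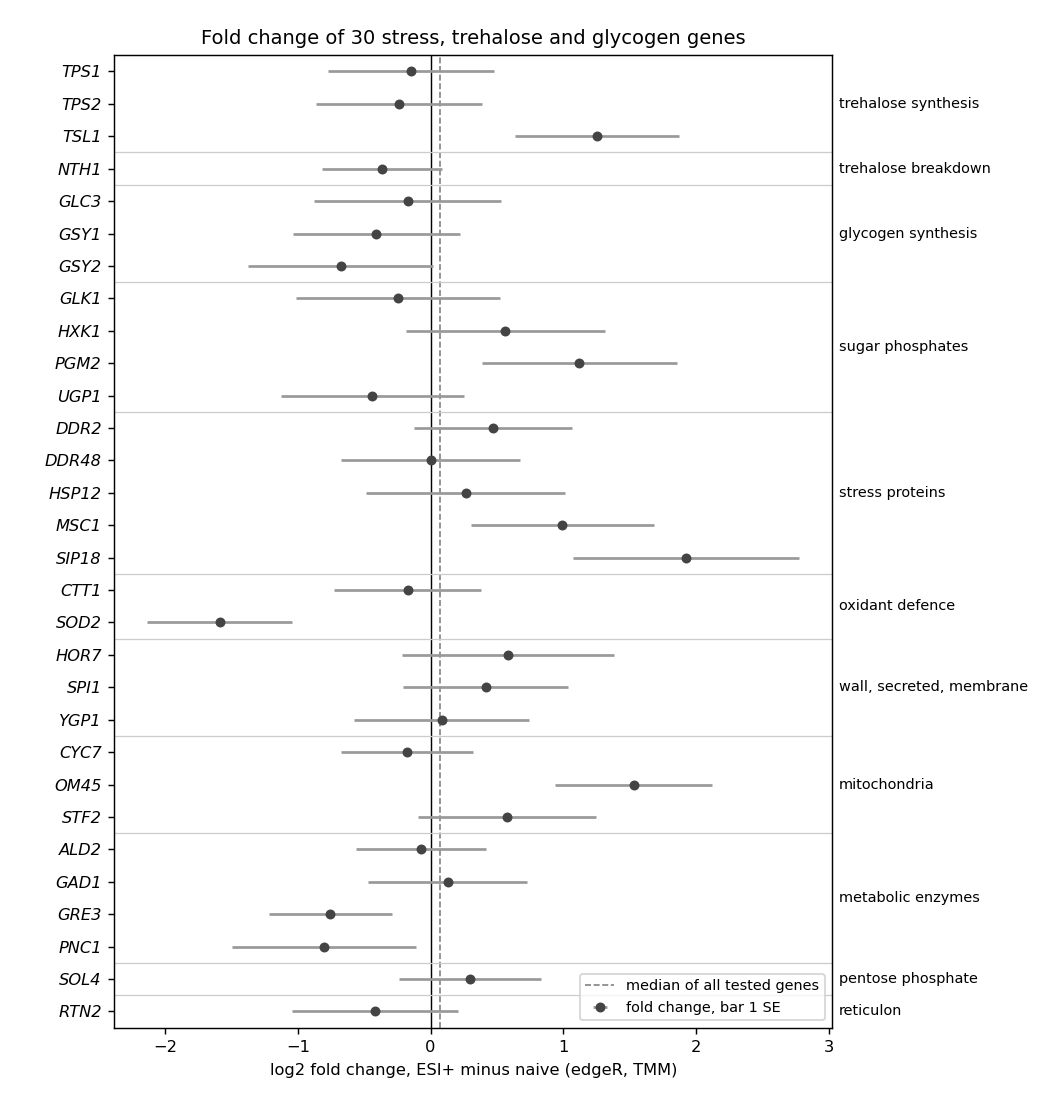
Log2 fold change of the 30 genes, ESI+ minus naive, from edgeR on TMM-scaled counts (points, with bars of 1 standard error), grouped by role; the dashed line is the median of all tested genes. Values run from -1.59 (SOD2) to 1.93 (SIP18), and most bars cross 0.

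The median near 0 joined libraries that differed from each other. The middle value of the 30 genes, as the log2 ratio of CPM to the mean of the naive libraries, was 0.64, -0.99 and -0.07 in ESI+ replicates 1, 2 and 3, against -0.20, -0.05 and 0.23 in naive replicates 1 to 3. All genes had medians of -0.05, -0.04 and -0.13 in the ESI+ libraries. In ESI+ replicate 1, 22 of the 30 lay above every naive library, where 31.8% of all genes did so. In ESI+ replicate 2, 22 of the 30 lay below every naive library, where 40.3% of all genes did so, and 3 lay above (42.0% of all genes). ESI+ replicate 3 was mixed, with 9 above (36.3% of all genes) and 13 below (41.4% of all genes). In normalised CPM the 30 genes were thus high in the first ESI+ library and low in the second. Abundant genes as a whole were also low there. The 711 most abundant tested genes, which hold 28 of the 30, had medians of -0.33, -1.54 and -0.58 in ESI+ replicates 1, 2 and 3. Those 28 genes had 0.62, -1.10 and -0.07.

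**Figure D3:**
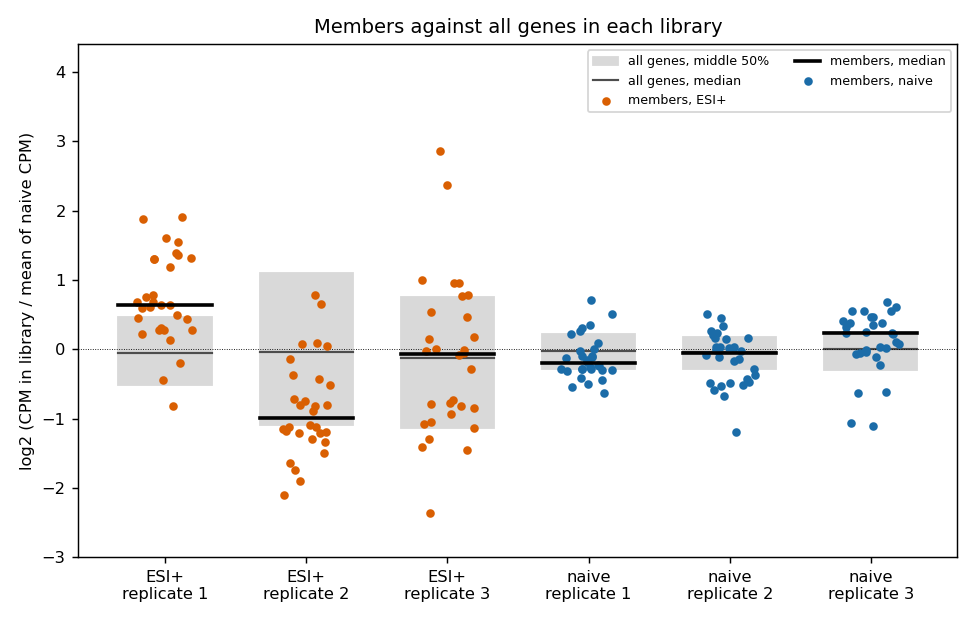
Log2 ratio of normalised CPM in each library to the mean of the naive libraries, with an offset of 0.5 CPM; points are the 30 genes, black lines their medians, and grey boxes the middle 50% of all genes. The medians of the 30 genes are 0.64, -0.99 and -0.07 in ESI+ replicates 1 to 3, and the naive libraries lie between -0.20 and 0.23.

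The summed level shows the same split and how far it depends on the scale. The 30 genes together had 58193, 15611 and 30679 normalised CPM in ESI+ libraries, against 26739, 31769 and 31399 CPM in naive libraries. Their mean was 34828 ± 21592 CPM in ESI+ and 29969 ± 2804 CPM in naive cells (SD, n = 3 each), a ratio of 1.16, and the groups overlapped. As a plain share of all counts, with no TMM scaling, the 30 genes held 5.58%, 3.03% and 3.87% in ESI+ libraries against 2.16%, 2.16% and 2.43% in naive libraries. On that scale all ESI+ libraries lay above all naive ones, with a ratio of the means of 1.85. The median gene of all 2850 had a ratio of 1.92 on the same scale and of 1.84 in TPM. Taken gene by gene, the middle ratio of the 30 was 1.65 and 1.59 on these scales. A median over all genes is no match for a sum of abundant ones, as 28 of the 30 lie among the 711 most abundant. With edgeR on TMM-scaled counts, the middle log2 fold change was -0.70 for those 711 and -0.11 for the 28. Whether 1.85 exceeds the ratio of equally abundant genes as a share of counts was not tested. HOR7 alone gave 25.4%, 15.9% and 26.6% of these counts in ESI+ libraries and 17.4%, 21.4% and 17.6% in naive libraries. Without it, the others still held 4.16%, 2.55% and 2.84% of all counts in ESI+ libraries against 1.79%, 1.70% and 2.00% in naive libraries. These sums are given with no test, since the genes were chosen with earlier results known.

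Abundance corrected for transcript length was read from TPM values, which are scaled to a fixed total in each library. In TPM, 10 of the 30 genes had all ESI+ values above all naive values (TSL1, PGM2, HXK1, SIP18, SPI1, HOR7, MSC1, GAD1, OM45 and STF2), where 29.6% of all listed genes did so. Only SOD2 had all ESI+ values below all naive values, where 3.68% of listed genes did so. In TMM-scaled CPM these counts were 3 higher (TSL1, OM45 and SIP18, where 15.2% of all genes were higher) and 1 lower (SOD2, where 14.6% were lower). As shares of all counts they were 10 higher (32.5% of all genes) and 1 lower (3.19%). On log2(TPM + 1) the median of all genes was 0.64 in favour of ESI+. limma on that scale called 5 of the 30 genes higher (OM45, TSL1, MSC1, PGM2 and SIP18), where it called 4.84% of all genes higher. edgeR with total counts in place of TMM called 4 higher (OM45, TSL1, MSC1 and PGM2), where it called 19.1% of all genes higher. With each library centred on its own median, limma called 0 of the 30 and 0 of all genes, with 651 genes at an unadjusted p under 0.05.

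**Figure D4:**
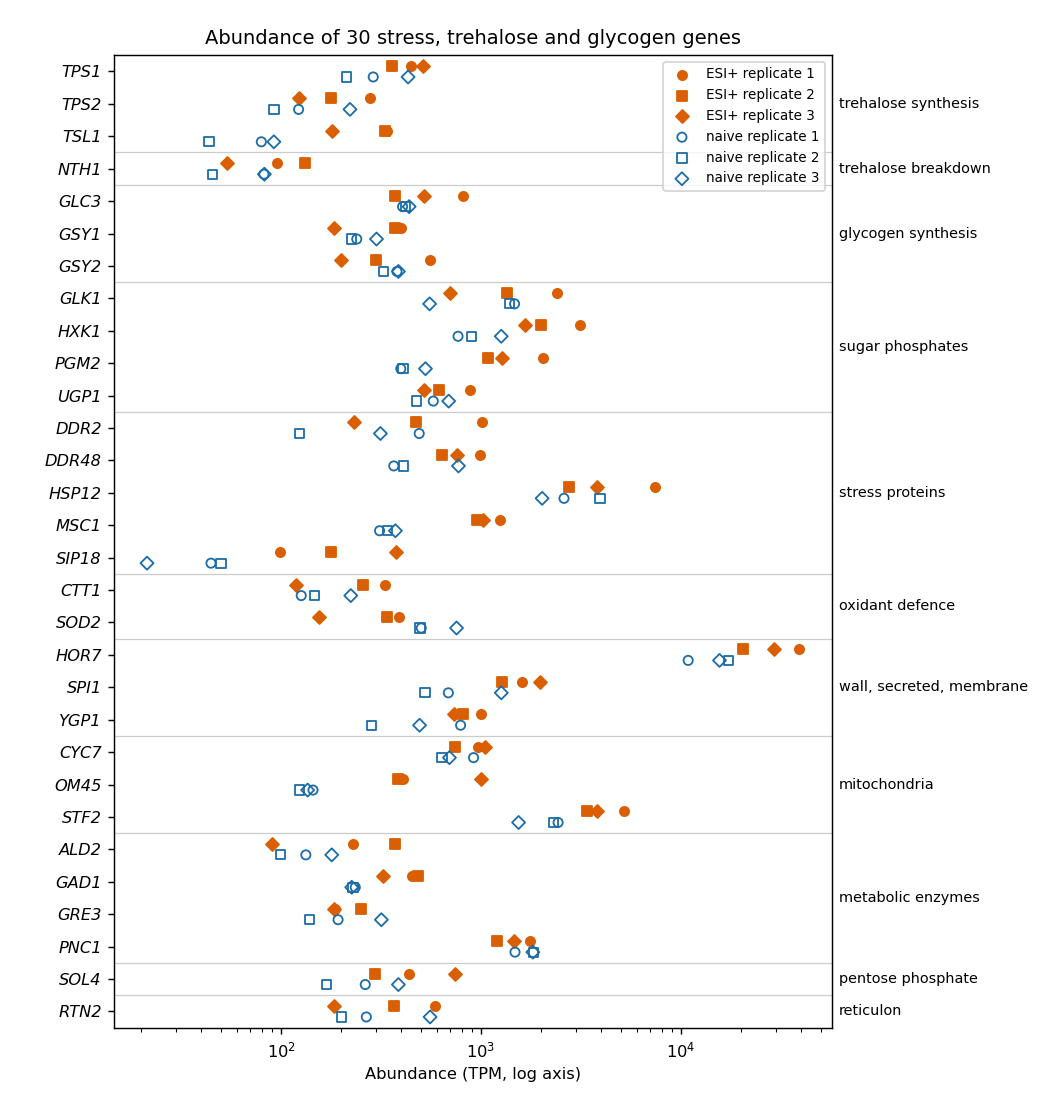
Abundance of the 30 genes in each of the 6 libraries, in TPM on a log axis, grouped by role, with ESI+ libraries as filled and naive libraries as open symbols. All ESI+ values lie above all naive values for 10 genes, among them TSL1, PGM2, MSC1 and OM45, and below them for SOD2.

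Trehalose synthesis is carried out by a complex that includes TPS1 (trehalose 6-phosphate synthase), TPS2 (the phosphatase that finishes the sugar) and TSL1, a regulatory subunit. TSL1 (YML100W, chrXIII:70624-73920, plus strand) had 1381, 629.7 and 624 CPM in ESI+ libraries, against 368, 257 and 478 CPM in naive libraries. Every ESI+ library lay above every naive one. Its means were 878 ± 436 CPM in ESI+ and 367 ± 111 CPM in naive cells (SD, n = 3 each), and edgeR gave a log2 fold change of 1.26 (SE 0.62), which missed the threshold (adjusted p = 0.196). In TPM, TSL1 had 337, 331 and 179.9 in ESI+ against 79.6, 43.6 and 92.0 in naive libraries, a ratio of the means of 3.94 where the median gene had 1.84.

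The catalytic subunits gave no such gap. TPS1 had 837, 309.9 and 796 CPM in ESI+ libraries and 604, 555 and 989 CPM in naive libraries (log2 fold change -0.15, SE 0.62, edgeR adjusted p = 0.895). TPS2 had 999.7, 295 and 371 CPM in ESI+ libraries and 494, 472 and 999 CPM in naive libraries (-0.24, SE 0.63, edgeR adjusted p = 0.837). For both genes the groups overlapped, and the lowest CPM value was in ESI+ replicate 2. In TPM the groups overlapped too, and the lowest values were in naive replicate 2 (213 for TPS1 and 92.2 for TPS2). The ratios of mean TPM were 1.41 for TPS1 and 1.33 for TPS2, where the median gene had 1.84. NTH1, the neutral trehalase that splits trehalose into glucose, had 289, 184 and 138 CPM in ESI+ libraries and 279.8, 196 and 314 CPM in naive libraries (-0.37, SE 0.45, edgeR adjusted p = 0.640). Whether TSL1 differed from TPS1 and TPS2 in its response was not tested.

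The 3 glycogen synthesis genes of the set all had negative fold changes with edgeR, though GLC3 turned to 0.065 after subtraction of the background, and none passed. GSY1, a glycogen synthase, had 1076, 467 and 418 CPM in ESI+ libraries and 727, 862 and 1015 CPM in naive libraries (log2 fold change -0.41, SE 0.63, edgeR adjusted p = 0.719). GSY2, the main glycogen synthase, had 1646, 408 and 498 CPM in ESI+ libraries and 1269, 1375 and 1436 CPM in naive libraries (-0.68, SE 0.70, edgeR adjusted p = 0.568). The branching enzyme GLC3 had 2131, 448 and 1157 CPM in ESI+ libraries and 1201, 1571 and 1440.0 CPM in naive libraries (-0.17, SE 0.71, edgeR adjusted p = 0.893). In CPM, ESI+ replicate 1 was the highest of the 6 libraries for each of the 3, and ESI+ replicates 2 and 3 lay below all naive libraries. In TPM this held for GSY2 alone. GSY1 in ESI+ replicate 2 (372 TPM, naive 225 to 300) and GLC3 in ESI+ replicate 3 (521 TPM, naive 405 to 437) lay above all naive libraries. The ratios of mean TPM were 1.25 for GSY1, 0.96 for GSY2 and 1.35 for GLC3, where the median gene had 1.84. GSY1 and GSY2 share 73.5% of their coding bases and have separate rows in the files.

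The enzymes that lead glucose toward both carbohydrates were split. PGM2 (YMR105C, chrXIII:475897-477606, minus strand), the main phosphoglucomutase, which interconverts glucose 6-phosphate and glucose 1-phosphate, had 4394, 1092 and 2331 CPM in ESI+ libraries against 959.6, 1230.1 and 1405 CPM in naive libraries. ESI+ replicates 1 and 3 lay above every naive library and ESI+ replicate 2 among them. edgeR gave it a log2 fold change of 1.12 (SE 0.74, adjusted p = 0.335). In TPM, PGM2 had 2039.5, 1089 and 1274 in ESI+ libraries against 397, 407 and 527 in naive libraries, and by TPM it ranked 69, 91 and 168 of the listed genes in ESI+ libraries against 383, 355 and 298 in naive libraries. HXK1, a hexokinase that glucose represses, had 5994, 1746 and 2647 CPM in ESI+ libraries and 1646, 2403 and 2971 CPM in naive libraries (0.56, SE 0.75, edgeR adjusted p = 0.661). GLK1, the glucokinase, had 4585, 1180.0 and 1112 CPM in ESI+ libraries and 3156, 3708 and 1301 CPM in naive libraries (-0.25, SE 0.77, edgeR adjusted p = 0.861), and it overlaps another gene, whose reads may be shared. UGP1, which makes UDP-glucose, had 1708, 555 and 849 CPM in ESI+ libraries and 1265, 1297 and 1653 CPM in naive libraries (-0.44, SE 0.69, edgeR adjusted p = 0.722). For HXK1, GLK1 and UGP1, ESI+ replicate 1 was the highest library and the groups overlapped.

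Fold changes of the 5 stress proteins were all positive with edgeR (median 0.47), though HSP12 and DDR48 turned to -0.06 and -0.26 relative to all genes with total-count scaling, and none passed. As log2 ratios to the naive mean, their middle values were 1.32 in ESI+ replicate 1, -0.82 in ESI+ replicate 2 and -0.01 in ESI+ replicate 3. HSP12 (YFL014W, chrVI:107256-107585, plus strand), a small membrane-binding chaperone, had 3514, 547 and 1475 CPM in ESI+ libraries and 1433, 2179 and 1001 CPM in naive libraries. Its highest and its lowest value were both in ESI+ libraries, and edgeR gave a log2 fold change of 0.26 (SE 0.75, adjusted p = 0.845). In TPM it had 7376, 2762 and 3803 in ESI+ libraries and 2598, 3937 and 2019.9 in naive libraries. MSC1, which has been linked to recombination between sister chromatids, had 2459, 891 and 1683 CPM in ESI+ libraries and 689.7, 937 and 905 CPM in naive libraries (0.99, SE 0.69, edgeR adjusted p = 0.366). ESI+ replicate 2 was the only ESI+ library within the naive range of MSC1 in CPM, while in TPM its values were 1246, 959 and 1019 in ESI+ libraries against 311, 339.6 and 373 in naive libraries. DDR2 and DDR48, named for their induction by DNA damage, had log2 fold changes of 0.47 (SE 0.59) and 0.0015 (SE 0.67).

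SIP18, a small hydrophilin that protects cells during drying, had the highest fold change of the 30 and the lowest counts. It had 41, 104 and 26 counts in ESI+ libraries and 39, 8 and 17 in naive libraries, which is 22.1, 13.8 and 65.1 CPM in ESI+ libraries against 11.1, 10.9 and 3.70 CPM in naive libraries. The groups did not overlap, and edgeR gave a log2 fold change of 1.93 (SE 0.85, adjusted p = 0.148). Its count was 0.927 times the estimated background in ESI+ replicate 2 and 0.816 times in naive replicate 3, so those values cannot be told from background. In ESI+ replicate 3 it was 34.7 times the background.

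Both oxidant-defence genes had negative fold changes with edgeR, though CTT1 turned to 0.11 after subtraction of the background. SOD2 (YHR008C, chrVIII:122889-123590, minus strand), the manganese superoxide dismutase of the mitochondrial matrix, had 323, 132 and 110.2 CPM in ESI+ libraries, against 462, 538 and 712 CPM in naive libraries. It was the only one of the 30 with every ESI+ library below every naive one, in CPM, in TPM and as a share of counts. Its means were 188 ± 117 CPM in ESI+ and 570.4 ± 128 CPM in naive cells (SD, n = 3 each), with a log2 fold change of -1.59 (SE 0.55, edgeR adjusted p = 0.0654). Without ESI+ replicate 1, the library in which most of the 30 genes were high, SOD2 passed with edgeR (-2.18, adjusted p = 0.0378), where 3.06% of all genes were lower. CTT1, the cytosolic catalase and a widely used Msn2 and Msn4 reporter, had 679, 241 and 200.3 CPM in ESI+ libraries and 289, 417 and 561 CPM in naive libraries, and the groups overlapped (-0.17, SE 0.56, edgeR adjusted p = 0.866).

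Among the mitochondrial genes, OM45 (YIL136W, chrIX:93619-94800, plus strand) stood out in the opposite direction to SOD2. OM45 encodes a major protein of the outer mitochondrial membrane. It had 566, 245 and 1192 CPM in ESI+ libraries, against 226, 236 and 228 CPM in naive libraries. The naive libraries lay within a narrow range, and every ESI+ library lay above it, ESI+ replicate 2 by little. Its means were 668 ± 482 CPM in ESI+ and 229.9 ± 5.57 CPM in naive cells (SD, n = 3 each), and edgeR gave a log2 fold change of 1.53 (SE 0.59), which missed the threshold (adjusted p = 0.0963). Without ESI+ replicate 3 the fold change was 0.82 (edgeR adjusted p = 0.326). STF2, a small protein that binds the ATP synthase, had 1827, 450.1 and 1024 CPM in ESI+ libraries and 885, 854 and 476 CPM in naive libraries (0.58, SE 0.67, edgeR adjusted p = 0.619). CYC7, the cytochrome c isoform of low oxygen, had a log2 fold change of -0.18 (SE 0.50).

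The wall and secreted proteins held the most abundant gene of the set. HOR7, a small protein induced by high osmolarity, had 14786, 2478 and 8171 CPM in ESI+ libraries and 4659.7, 6801 and 5516 CPM in naive libraries (log2 fold change 0.58, SE 0.80, edgeR adjusted p = 0.674). In TPM it had 39047, 20369 and 29152 in ESI+ libraries against 10851, 17336 and 15569 in naive libraries, and it ranked 2, 3 and 2 among the listed genes in ESI+ libraries against 12, 9 and 7 in naive libraries. ESI+ replicate 2 was thus the lowest library in CPM and above every naive library in TPM. The cell wall protein SPI1 and the secreted glycoprotein YGP1 had fold changes of 0.41 (SE 0.62) and 0.08 (SE 0.66), with overlapping groups in CPM.

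The remaining enzymes varied around 0. PNC1, the nicotinamidase that feeds NAD+ salvage and raises Sir2 activity, had 1412, 435 and 949 CPM in ESI+ libraries and 1318, 1909 and 1646 CPM in naive libraries (log2 fold change -0.80, SE 0.69, edgeR adjusted p = 0.479). ESI+ replicate 1 lay within the naive range of PNC1 and the other two ESI+ libraries below it. GRE3, an aldose reductase, had a fold change of -0.76 (SE 0.46, edgeR adjusted p = 0.304). GAD1, glutamate decarboxylase, had 978, 486 and 593 CPM in ESI+ libraries and 574, 702 and 608 CPM in naive libraries (0.13, SE 0.60), and in TPM 449, 486 and 323 in ESI+ libraries against 235, 229 and 226 in naive libraries. The aldehyde dehydrogenase ALD2 (-0.07), the pentose phosphate enzyme SOL4 (0.30) and the reticulon RTN2 (-0.42) had overlapping groups. ALD2 is 91.8% identical to ALD3, which has no row, so reads of ALD3 may have been counted in ALD2.

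The rank of a gene among the listed genes of its own library does not depend on a scaling factor. By TPM rank, 8 of the 30 genes stood higher in every ESI+ library than in any naive library (TSL1, PGM2, SPI1, HOR7, MSC1, GAD1, OM45 and STF2), where 15.4% of all listed genes did so. SOD2 was the only one to stand lower, where 13.9% of all genes did so. TSL1 ranked 472, 554 and 845 in ESI+ libraries against 1316, 1632 and 1168 in naive libraries. OM45 ranked 410, 438 and 204 in ESI+ libraries against 900, 922 and 924 in naive libraries. MSC1 ranked 127, 107 and 200 in ESI+ libraries against 485, 422 and 407 in naive libraries. SOD2 ranked 424, 525 and 956 in ESI+ libraries against 301, 293 and 191 in naive libraries. These ranks have no test of their own.

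**Figure D5:**
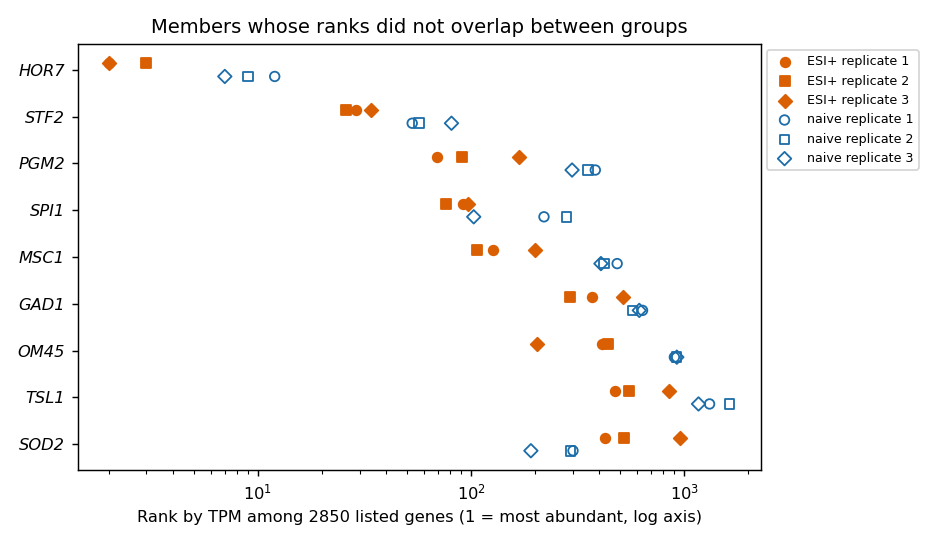
Rank by TPM among the 2850 listed genes (1 is the most abundant, log axis) for the 9 of the 30 genes whose ESI+ and naive libraries did not overlap in rank; filled symbols are ESI+ and open symbols naive libraries. For the upper 8 genes the ESI+ libraries stand to the left, at higher ranks, and for SOD2 they stand to the right.

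The number of matches to the stress response element was set beside the fold changes. The 15 genes of the set with 3 or more matches had a median log2 fold change of -0.17, and the 14 with 1 or 2 matches had 0.11. Outside the set, the 50 listed genes with 3 or more matches had a median of -0.30, with 2 called higher and 0 lower by edgeR, and the 1853 with no match had a median of 0.13, with 133 higher and 32 lower. In ESI+ replicates 1, 2 and 3, those 50 genes had median log2 ratios to the naive mean of -0.05, -0.82 and -0.52, and the 15 genes of the set had 0.68, -1.15 and -0.28. TSL1 and PGM2, with 5 matches each, and HSP12, also with 5, differed in their values, and so did OM45 with 2 and SOD2 with 1.

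Transcript models add a limit on the level per gene. The 30 genes have 259 isoforms in the files, and 26 of them have several. The mean isoform length, weighted by TPM and rounded to 0.1 base, was longer in ESI+ replicate 2 than in each other library for 17 of those 26 genes (65.4%), against 54.8% of the 2071 listed genes with several isoforms. It was longer in every ESI+ library than in any naive library for 7 of the 26 (26.9%, against 12.9% of the 2071) and shorter for 0 (0.966% of the 2071). For SOD2 it was 854.8, 896 and 875 bases in ESI+ libraries and 846.2, 845 and 845.4 bases in naive libraries. TSL1, GLC3, NTH1 and SIP18 have 1 isoform each, so no choice among their own isoforms enters their TPM values. The fixed total to which TPM is scaled still depends on the isoforms of other genes. With the effective length of each library as an offset, edgeR called 0 of the 30 genes and 221 of all genes, and the median log2 fold change of the 30 was -0.0017.

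Other genes of the same pathways passed no more often. Of 17 further genes of trehalose and glycogen metabolism, 8 are listed, and 4 had positive and 4 negative fold changes (median 0.05). edgeR called 0 of them, where 7.91% of all tested genes were called. At an unadjusted p under 0.05 there were 0, where 25.7% of all tested genes were picked. In a list this short, 0 called is near the share of all genes. The smallest adjusted p values there were those of GLC7, the catalytic subunit of protein phosphatase 1 (-1.34, SE 0.76, edgeR adjusted p = 0.262), PCL10, a cyclin of the kinase that phosphorylates glycogen synthase (1.15, adjusted p = 0.283), and SNF1, the AMP-activated kinase (0.75, adjusted p = 0.332). Of 32 genes for Msn2, Msn4 and their regulators, 10 are listed, with a median of -0.54 and 0 called, also near the 7.91% of all tested genes. At an unadjusted p under 0.05 there were 2 of the 10, near the 25.7% of all tested genes. MSN2 and MSN4 have no row. In that list the phosphatase PSR2 (1.10, SE 0.51, edgeR adjusted p = 0.165) and the 14-3-3 protein BMH1 (-1.72, SE 0.83, adjusted p = 0.187) had an unadjusted p under 0.05, and IGO1, a target of the Rim15 kinase, had -0.89 (adjusted p = 0.261).

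A wider list of 38 other general stress genes, of which 25 are listed, also had no called gene. Fold changes were positive for 8 and negative for 17, with a median of -0.21, and edgeR called 0, where 1.65% of all genes were lower. At an unadjusted p under 0.05, 3 of the 25 were lower, where 10.6% of all genes were, a share near that background. GPP2, a glycerol phosphatase of the osmotic response, had 80.2, 53.9 and 125 CPM in ESI+ libraries against 234, 164 and 217 CPM in naive libraries. YPR1, an aldo-keto reductase, had 171, 75.5 and 203 CPM in ESI+ libraries against 419.9, 285 and 419 CPM in naive libraries. APE1, a vacuolar aminopeptidase, had 304, 169 and 225 CPM in ESI+ libraries against 540.3, 732 and 631 CPM in naive libraries. In CPM every ESI+ library lay below every naive one for all 3, where 14.6% of all genes did so, but in TPM and as shares of counts this held for APE1 and not for GPP2 and YPR1. The 3 genes had log2 fold changes of -1.28 (SE 0.46), -1.34 (SE 0.48) and -1.45 (SE 0.54) and edgeR adjusted p values of 0.0749, 0.0757 and 0.0893.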

How the data were processed

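Polyadenylated RNA of 3 ESI+ and 3 naive cultures was analysed, grouped by the labels' genotype field. The authors used kallisto 0.43.1 and genome build R64, per the submitters' processing notes. The deposited files hold an estimated count, a TPM value and lengths for each of 17906 isoforms, per the file headers. No source used here states the strand, the options of kallisto or where the isoform models came from.

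Estimated counts were summed per gene and rounded, and TPM values were summed per gene. Counts were filtered with edgeR 4.0.16 (R 4.3.3, minimum count 10, 2844 genes left), scaled by TMM and tested by the quasi-likelihood test with robust estimation and Benjamini-Hochberg adjustment over all tested genes. An SE is the size of the fold change divided by the square root of F. The script was tested on simulated counts drawn from a mean profile shared by all libraries. Differences in background between libraries were not part of that test. limma 3.58.1 and DESeq2 1.42.0 were alternatives. Total counts of 316485 to 5934050 limit precision, most of all in ESI+ replicate 3. Counts of every pair of libraries in a group differed beyond sampling noise (chi-square per degree of freedom 48.9 to 552), so each was counted as 1 replicate.

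The genes and lists were chosen with earlier results of these data known. Every listed gene of the set was named; those of trehalose and glycogen metabolism, the 6 with the highest mean TPM and the 6 with the largest fold changes were given in full, and 3 genes with the smallest adjusted p from each other list. Genes shown outside that rule were chosen after their values were seen. Promoter sequence is from the RefSeq R64 genome.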

Additional observations from a re-analysis of the deposited data

How the results depend on the processing

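Of the results given above, the median fold change of the 30 genes ran from -0.42 to 0.31 over the alternatives, so its sign was not fixed. The ratio of their summed CPM ran from 0.77 to 1.85. Both stayed within 1 SD between the ESI+ libraries, but that is a loose limit. The SD was 0.82 for the median and 0.72 for the ratio. Counts of called genes also changed with the processing. All genes called were 225 with edgeR, 556 with total-count scaling, 386 with DESeq2, 116 with limma on log2(TPM + 0.1), and 0 after subtraction of the background or with limma on centred log2(TPM + 1), where 533 and 651 genes had an unadjusted p under 0.05. Leaving out 1 library gave 2 to 374 called genes, with 2 without ESI+ replicate 2, 374 without ESI+ replicate 3, and 101, 69 and 75 without naive replicates 1, 2 and 3. Of the 30 genes, 4 were called with total-count scaling, 2 with DESeq2, 5 with limma on log2(TPM + 1) and 5 on log2(TPM + 0.1), and 0 to 1 with a library left out (SOD2, without ESI+ replicate 1). Of the genes in the other lists, markers aside, total-count scaling called 2, DESeq2 called 1, and leaving out 1 library gave 0 to 2 (GPP2 and YPR1 without ESI+ replicate 3). Of the marker genes, HIS3 (2.20, adjusted p = 0.0545 with edgeR) passed without robust estimation, with total-count scaling, DESeq2 and both limma fits on uncentred TPM, and without ESI+ replicate 1, naive replicate 1 or naive replicate 2, with adjusted p from 0.0104 to 0.680 over all alternatives. MFA1 passed with total-count scaling, DESeq2, both of those limma fits and without ESI+ replicate 3, with adjusted p from 8.88e-04 to 0.338. URA3 passed as lower in ESI+ without ESI+ replicate 3 (-2.23, edgeR adjusted p = 0.00258), against 0.19 with all libraries. The cause of these shifts was not tested. The subtraction, centring and total-count scaling were chosen after seeing the data.

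Total-count scaling moved the median of all genes to 0.95 and limma on log2 TPM to 0.64, so fold changes there are given relative to those medians. On that footing, the sign turned with total-count scaling for HSP12 (-0.06), DDR48 (-0.26), YGP1 (-0.18) and GAD1 (-0.049), and with limma on both pseudocounts for HSP12 (-0.0093 and -0.0096). On centred values it turned for HSP12 (-0.056), DDR48 (-0.0061) and URA3 (-0.029). After subtraction of the background it turned for CTT1 (0.11), TPS1 (0.078), GLC3 (0.065), GLK1 (0.12), ALD2 (0.35) and CYC7 (0.095).

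Replicate numbers are shared by both groups, but over all genes samples with the same number did not deviate together (correlations of -0.064, -0.209 and -0.041), so the numbers were not taken to pair them. URA3 is an exception, high in the third library of both groups. With the replicate block, edgeR called 92 of all genes and 0 of the 30, and the sign turned for DDR48 (-0.10) and URA3 (-0.029).

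With 1 library left out, log2 fold changes that turned sign ranged from -0.55 to 0.70 for HSP12, -0.80 to 1.07 for DDR2, -0.42 to 0.45 for DDR48, -0.04 to 0.89 for HXK1, -0.034 to 1.02 for HOR7, -0.30 to 0.48 for YGP1, -0.17 to 0.33 for GAD1, -0.88 to 0.15 for CTT1, -0.33 to 0.22 for TPS1, -0.93 to 0.26 for TPS2, -0.76 to 0.23 for GLC3, -1.19 to 0.092 for GLK1, -0.43 to 0.15 for CYC7, -0.37 to 0.25 for ALD2, -0.18 to 0.72 for SOL4, -1.21 to 0.16 for RTN2 and -2.23 to 2.22 for URA3. TSL1 ranged from 0.82 to 1.55, OM45 from 0.82 to 1.93, PGM2 from 0.57 to 1.49, MSC1 from 0.66 to 1.30, SIP18 from 1.11 to 2.33 and SOD2 from -2.18 to -1.33. These 6, the ones with the largest fold changes, kept their sign in every such fit. They were not alone in this. SPI1 and STF2, with positive fold changes, and GSY1, GSY2, NTH1, UGP1, GRE3 and PNC1, with negative ones, are also not among the genes that turned.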
